A study of Mus musculus with 47 samples.

Results

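*Susd2* and *Slc17a7* are the subject here, 2 of the 45650 genes counted in RNA-seq of mouse C2C12 lines that carry a doxycycline (dox) inducible transgene. They were chosen by their log2 fold changes in an earlier look at the same libraries: *Susd2* with dox at 48 h and from 48 to 120 h, and *Slc17a7* with dox at 0 and 24 h and from 0 to 24 h. Those values, the differences built from them and the *Susd2* response at 120 h, which shares libraries with them, are therefore given as a description with no p-value, and the rest is tested. It is not recorded which other dox comparisons were in view when the genes were picked.

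C2C12 is an immortalized mouse myoblast line that forms myotubes when serum is withdrawn. The iMyoD1 line keeps its own MyoD1 and adds an inducible Halo-MyoD1, while the iCdh23 and iMcam lines carry inducible *Cdh23* or *Mcam*, adhesion genes. Each construct sat in the XLone vector under a doxycycline-responsive promoter, was integrated by PiggyBac transposase and was kept by puromycin selection. The iMyoD1 groups were growth medium (0 h, with 24 h of treatment), 24, 48 and 120 h of serum withdrawal as whole cultures, and a myoblast-enriched and a myotube-enriched fraction at 120 h, parted by a 40 µm strainer. The iCdh23 and iMcam groups were taken at 48 h. Every one of these 8 settings had a group given 1 µg/ml dox and a group without dox (untreated in the labels, vehicle in the methods), which makes 16 groups and 47 libraries, with 3 biological replicates each, or 2 for dox-treated cells of the myoblast-enriched fraction. No dox-treated C2C12 without a transgene is among these libraries, so an effect of the drug and an effect of a transgene cannot be told apart.

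*Susd2* encodes a type I membrane protein with sushi, somatomedin B, AMOP and von Willebrand factor type D domains. Antibodies to it mark mesenchymal stem cells and naive human pluripotent cells, and it binds galectin-1. *Slc17a7* encodes VGLUT1, a transporter that loads glutamate into synaptic vesicles, driven by the gradient that the vesicular proton pump builds, and it is best known from excitatory neurons of the cortex and hippocampus. MyoD1 is a basic helix-loop-helix factor that binds E-boxes (CANNTG) together with E proteins and drives muscle genes. Glutamate is not the main transmitter at vertebrate neuromuscular junctions, which use acetylcholine.

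*Susd2* (ENSMUSG00000006342) lies on the minus strand at chr10:75636706-75644008 of GRCm38, and *Slc17a7* (ENSMUSG00000070570) on the plus strand at chr7:45163949-45176142. The counts give *Slc17a7* as 1 transcript, ENSMUST00000085374, with 2915 bases. *Susd2* has 2, both coding: a long transcript (ENSMUST00000095541) with 3151 bases in 15 exons, and a short transcript (ENSMUST00000077610) with 2275 bases in 13 exons. The short transcript leaves out exons 2 and 3 of the long one, 360 coding bases or 120 codons, so the reading frame is kept, and its last exon is annotated with 160 bases in place of 665. The splice junctions that tell them apart are shown first, because the split of the *Susd2* count rests on reads across them, on reads within exons 2 and 3 and on the annotated ends. They are read 5′ to 3′ from the GENCODE vM21 transcripts, 15 bases on each side, with the downstream exon in capitals.
Long transcript, exon 1 to exon 2: ccgggttcacagcagGTGCCCAGGGAAGCT
Long transcript, exon 3 to exon 4: gcacttggctagctgCACATCCCTACAAAG
Short transcript, exon 1 to exon 2: ccgggttcacagcagCACATCCCTACAAAG
The short transcript thus joins the same donor to the acceptor that the long one uses for exon 4. The coding sequence it lacks follows on the gene's strand, exon 2 from chr10:75642463-75642670 and exon 3 from chr10:75642125-75642276.
Long transcript, exon 2: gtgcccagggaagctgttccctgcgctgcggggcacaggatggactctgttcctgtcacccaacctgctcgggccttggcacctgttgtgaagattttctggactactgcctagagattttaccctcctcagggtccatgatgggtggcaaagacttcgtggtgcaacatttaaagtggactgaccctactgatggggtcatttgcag
Long transcript, exon 3: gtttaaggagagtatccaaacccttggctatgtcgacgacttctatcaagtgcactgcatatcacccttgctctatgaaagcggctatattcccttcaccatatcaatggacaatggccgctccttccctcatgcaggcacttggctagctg

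For *Slc17a7*, the window before the start site is shown because the induced factor of the iMyoD1 line binds E-boxes. Of the members, 1 of 2 was found in the RefSeq promoter table (GRCm38.p6), and the 250 bases upstream of its start lie at chr7:45163671-45163920 on the plus strand, with the E-box match in capitals.
Slc17a7 upstream window: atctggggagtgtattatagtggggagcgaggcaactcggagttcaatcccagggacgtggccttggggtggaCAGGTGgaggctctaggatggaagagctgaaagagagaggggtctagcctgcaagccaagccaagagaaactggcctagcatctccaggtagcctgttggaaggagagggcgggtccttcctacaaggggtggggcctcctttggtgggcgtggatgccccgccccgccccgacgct
Searched on both strands, the window held 1 match to CANNTG, which lies 177 bases upstream of the start and is of the form CAGGTG. It held no match to CAGCTG, the other E-box form looked for. Of 32851 such windows of mouse genes, 66.2% held the general E-box, 17.2% the first form and 13.0% the other, and both forms are also counted in the general one. The match is a description of letters and no measured binding site.

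Levels are CPM, counts scaled to the same total in every library with edgeR's TMM factors. With dox, every library of both genes lay above the matching group without dox, except in the myotube-enriched fraction, where the groups overlapped. *Susd2* was highest in iCdh23 with dox, at 42.9 ± 5.68 CPM (SD, n = 3), followed by iMcam with dox at 30.6 ± 5.00 and iMyoD1 at 48 h with dox at 13.9 ± 0.636, and the libraries of these 3 groups did not overlap from one to the next. *Susd2* then ran through the myoblast-enriched fraction with dox (13.1 ± 3.37, n = 2), 120 h with dox (8.13 ± 0.417) and the myotube-enriched fraction with dox (7.24 ± 5.33) and without (3.82 ± 5.05). Below these lay 0 h with dox (2.69 ± 0.468), the myoblast-enriched fraction without dox (1.08 ± 0.353) and 24 h with dox (0.716 ± 0.114). The 6 other groups without dox were between 0.121 ± 0.050 CPM at 24 h and 0.675 ± 0.346 CPM in iMcam. Apart from the top 3, neighbours in this order were free of overlap only between the myoblast-enriched fraction with dox and 120 h with dox, and between 0 h with dox and the myoblast-enriched fraction without.

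*Slc17a7* was also highest in iCdh23 with dox, at 53.2 ± 4.30 CPM (SD, n = 3), with every library above those of the next group, iMcam with dox at 15.3 ± 2.36. The iMyoD1 groups with dox followed: 14.7 ± 1.01 at 0 h, 13.2 ± 0.347 at 24 h, 9.82 ± 1.23 at 120 h, 9.78 ± 0.364 at 48 h, 8.48 ± 1.35 (n = 2) in the myoblast-enriched and 6.68 ± 3.59 in the myotube-enriched fraction. Among these, 0 h lay above 24 h and 24 h above 120 h without overlap. Without dox the myotube-enriched fraction was at 4.66 ± 4.50 and growth medium at 3.08 ± 0.901 CPM, above the remaining groups without overlap. Those ran from 1.40 ± 0.515 in iCdh23 down to 0.494 ± 0.235 at 120 h.

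**Figure D1:**
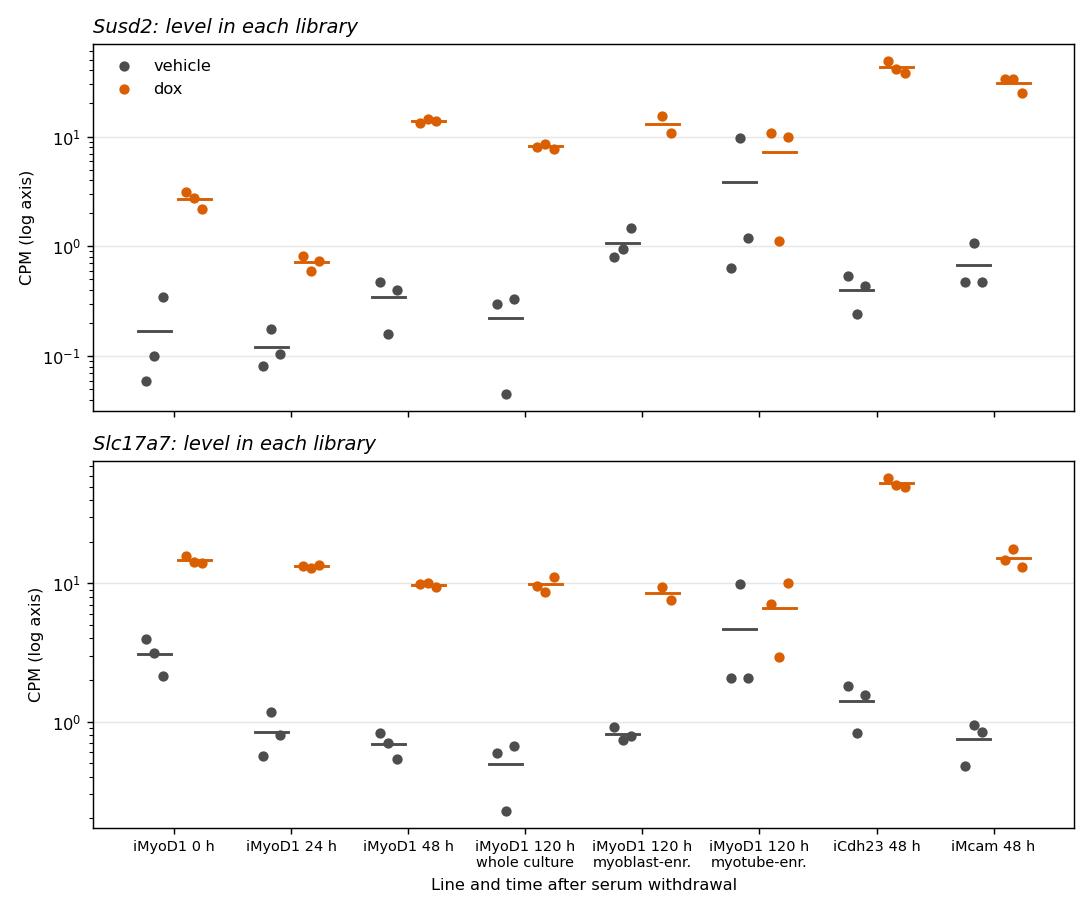
Level of *Susd2* (top) and *Slc17a7* (bottom) in each of the 47 libraries in CPM on a log axis, by line and time, with points for libraries and short lines for group means; dox and vehicle (no dox) have separate colours. Dox libraries of both genes lie above all vehicle libraries in every setting except the myotube-enriched fraction, where each group holds a library at the level of the other.

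In growth medium, *Susd2* was close to undetected without dox and clearly counted with it. Its levels were 3.12, 2.76 and 2.20 CPM with dox and 0.0598, 0.09997 and 0.349 CPM without, from 78, 57 and 44 estimated counts against 1, 2 and 7. *Susd2* rose with a log2 fold change of 3.91 (SE 0.44, adjusted p = 1.24e-05, edgeR quasi-likelihood test over all genes), 15.03-fold, the 4th largest increase of 13550 genes tested. Without the vehicle library of replicate 3 the log2 fold change was 4.96, since the counts left without dox are then 1 and 2. A gene is said to rise or fall at an adjusted p under 0.05 and a change over 2-fold, which 2.91% of the genes tested met upward at 0 h. *Slc17a7* was at 15.9, 14.2 and 14.02 CPM with dox and at 3.94, 3.15 and 2.15 CPM without, a log2 fold change of 2.28 (SE 0.17), given as a description. It was thus already counted in growth medium without dox, from 66, 63 and 43 estimated counts.

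At 24 h of serum withdrawal both genes were higher with dox, *Susd2* at a low level. *Susd2* was at 0.815, 0.592 and 0.742 CPM with dox and at 0.0812, 0.177 and 0.104 CPM without, and rose by 2.50 on the log2 scale (SE 0.44, edgeR adjusted p = 0.000375), 5.65-fold, against 8.03% of genes that rose. The vehicle libraries held 2, 5 and 3 counts, so this fold is loosely set. *Slc17a7* was at 13.4, 12.8 and 13.5 CPM with dox and at 0.569, 1.17 and 0.796 CPM without, a log2 fold change of 3.92 (SE 0.17) as a description. The dox response of *Susd2* at 24 h differed from that at 0 h by −1.48 (SE 0.74, interaction, edgeR adjusted p = 0.136), which misses the threshold. With single libraries left out it ran from −2.53 to −1.10, and without the 0 h vehicle library of replicate 3 it passed (adjusted p = 0.0219, up to 0.377 without others). The response of *Slc17a7* differed by 1.59 (SE 0.28), as a description.

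From 0 to 24 h, *Susd2* fell under dox by 1.89 on the log2 scale (SE 0.25, edgeR adjusted p = 1.87e-05), 3.72-fold lower, while 11.6% of the genes tested fell. *Slc17a7* hardly moved under dox, with a log2 fold change of −0.15 (SE 0.08), and was lower without dox by −1.80 (SE 0.31), both as descriptions. *Susd2* without dox was below the low-count filter at both times and could not be compared. The larger *Slc17a7* fold at 24 h therefore went with a lower level without dox and not with a higher level under dox.

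At 48 h, *Susd2* reached 13.3, 14.5 and 13.96 CPM with dox against 0.475, 0.161 and 0.402 CPM without. This log2 fold change of 5.30 (SE 0.22) was the 2nd largest of 13871 genes, and it is one of the values that chose the gene. *Slc17a7* was at 9.86, 10.1 and 9.39 CPM with dox and at 0.832, 0.696 and 0.536 CPM without. It rose by 3.83 (SE 0.18, edgeR adjusted p = 6.29e-08), 14.2-fold and 12th in rank, against 5.93% of genes that rose. The replicates under dox were close, with a coefficient of variation of 4.58% for *Susd2* and 3.72% for *Slc17a7*.

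At 120 h in whole cultures both genes were still high under dox. *Susd2* was at 8.06, 8.58 and 7.75 CPM with dox and at 0.295, 0.0452 and 0.333 CPM without, a log2 fold change of 5.15 (SE 0.42), 35.5-fold, given as a description because its dox libraries are among those by which the gene was chosen. *Slc17a7* was at 9.61, 8.71 and 11.1 CPM with dox and at 0.591, 0.226 and 0.666 CPM without, and rose by 4.29 (SE 0.34, edgeR adjusted p = 1.49e-05), 19.6-fold, where 7.32% of genes rose. From 48 to 120 h under dox, *Susd2* was lower by −0.77 (SE 0.13), a description, and *Slc17a7* had a log2 fold change of 0.01 (SE 0.14, edgeR adjusted p = 0.940). Without dox over the same interval *Slc17a7* had −0.45 (SE 0.47, adjusted p = 0.417). The dox response of *Slc17a7* at 120 h minus that at 48 h was 0.47 (SE 0.40, adjusted p = 0.392), and that of *Susd2* −0.14 (SE 0.61), as a description.

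The iCdh23 and iMcam lines carry no MyoD1 transgene, and both genes rose with dox there as well. In iCdh23, *Susd2* was at 49.1, 41.5 and 38.0 CPM with dox and at 0.532, 0.243 and 0.434 CPM without, and rose by 6.70 (SE 0.23, edgeR adjusted p = 4.56e-06), 103.9-fold. *Slc17a7* was at 58.1, 51.6 and 50.0 CPM with dox and at 1.82, 0.825 and 1.56 CPM without, and rose by 5.23 (SE 0.24, adjusted p = 6.34e-06), 37.5-fold. Of all genes 13.0% rose, and *Susd2* ranked 23rd and *Slc17a7* 56th of 14227.

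In iMcam, *Susd2* was at 33.4, 33.5 and 24.8 CPM with dox and at 0.477, 1.07 and 0.472 CPM without, and rose by 5.57 (SE 0.29, edgeR adjusted p = 0.000124), 47.4-fold and 3rd of 13731 genes. *Slc17a7* was at 14.8, 17.8 and 13.2 CPM with dox and at 0.477, 0.940 and 0.840 CPM without, and rose by 4.37 (SE 0.25, adjusted p = 0.000124), 20.7-fold and 15th. In iMcam 6.99% of genes rose. Between these lines with dox, *Slc17a7* was higher in iCdh23 by 1.77 (SE 0.12, edgeR adjusted p = 2.82e-05), 3.41-fold, a difference that 3.17% of genes reached in that direction. *Susd2* was 1.37-fold higher in iCdh23 (log2 0.45, SE 0.14, adjusted p = 0.0354), short of 2-fold, and this call was lost without any 1 of 4 libraries, iCdh23 with dox replicate 1 or 2 or iMcam with dox replicate 2 or 3 (adjusted p up to 0.102). Without dox the lines differed by −0.71 (SE 0.50, adjusted p = 0.623) for *Susd2* and 0.89 (SE 0.42, adjusted p = 0.493) for *Slc17a7*. The dox response in iCdh23 minus that in iMcam was 1.15 (SE 0.46, adjusted p = 0.144) for *Susd2* and 0.87 (SE 0.39, adjusted p = 0.193) for *Slc17a7*, so a larger response in iCdh23 was not called for either gene.

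**Figure D2:**
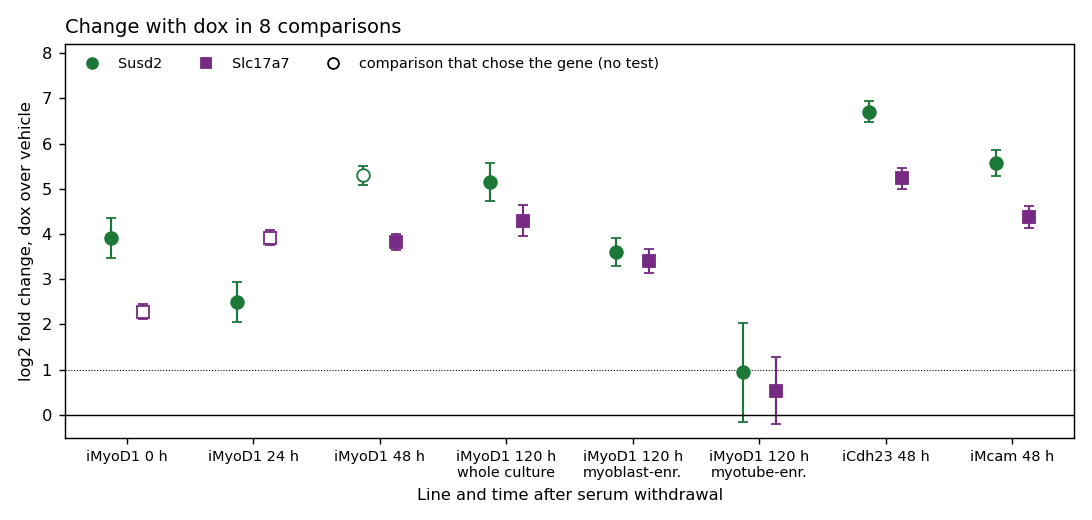
Log2 fold change with dox over vehicle (no dox) in the 8 comparisons, with the standard error as bars, circles for *Susd2* and squares for *Slc17a7*; open symbols are the comparisons that chose the gene, and the dotted line marks 2-fold. Both genes lie lowest, under 2-fold and with wide bars, in the myotube-enriched fraction (0.94 and 0.54), and in the other comparisons *Susd2* runs from 2.50 at 24 h to 6.70 in iCdh23 and *Slc17a7* from 2.28 at 0 h to 5.23 in iCdh23.

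The fractions of the 120 h culture gave a response in the myoblast-enriched cells and an unsettled value in the myotube-enriched ones. In the myoblast-enriched fraction *Susd2* was at 15.5 and 10.7 CPM with dox and at 0.807, 0.951 and 1.48 CPM without, and rose by 3.60 (SE 0.32, edgeR adjusted p = 0.00795), 12.1-fold. *Slc17a7* was at 9.44 and 7.53 CPM with dox and at 0.908, 0.739 and 0.782 CPM without, and rose by 3.40 (SE 0.26, adjusted p = 0.00704), 10.5-fold. Both were among the 1.21% of genes that rose, 8th and 12th of 14249. With 2 libraries under dox these calls are thin: without dox replicate 2 both adjusted p-values were 0.0808, and without vehicle replicate 3 they were 0.0580 for *Susd2* and 0.0658 for *Slc17a7*. Both calls were also lost, at about the same fold, with all groups of the table in 1 fit (adjusted p = 0.121 and 0.0819).

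In the myotube-enriched fraction, 1 library of each group stood at the level of the other group. *Susd2* was at 10.8, 1.11 and 9.80 CPM with dox and at 0.631, 9.65 and 1.19 CPM without, and *Slc17a7* at 7.04, 2.93 and 10.1 CPM with dox and at 2.05, 9.85 and 2.07 CPM without. In both genes it was the library labelled replicate 2 that stood apart, low with dox and high without. Over all genes it was replicate 1 that lay farthest from the others among the dox libraries (Pearson r of log2 values 0.827 and 0.867, against 0.905 between replicates 2 and 3), and without dox replicate 2 (0.941 and 0.947, against 0.973). The log2 fold changes were 0.94 (SE 1.09, edgeR adjusted p = 0.998) for *Susd2* and 0.54 (SE 0.73, adjusted p = 0.998) for *Slc17a7*. No gene was called there, 0% in each direction of 14113 tested with edgeR, with 79 at an unadjusted p under 0.05, and DESeq2 called 0 upward and 1 downward. Without both libraries labelled replicate 2, chosen with their values known, the log2 fold changes were 3.52 (SE 0.57, adjusted p = 0.351) and 2.09 (SE 0.50, adjusted p = 0.372). With single libraries left out the log2 fold change ran from 0.40 to 3.02 for *Susd2* and from 0.11 to 1.73 for *Slc17a7*, each highest without the vehicle library labelled replicate 2. The adjusted p was then between 0.579 and 1.00 for *Susd2* and between 0.635 and 1.00 for *Slc17a7*.

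Other genes moved with these libraries. *Myog*, which encodes myogenin, was at 982 and 1720 CPM in the vehicle libraries of replicates 1 and 3 and at 428 in the one labelled replicate 2, and with dox at 576 and 368 in replicates 1 and 3 and at 1974 in the one labelled replicate 2. *Mcam* was at 3.47 and 3.08 against 16.2 CPM without dox, and at 12.4 and 15.2 against 1.26 CPM with dox. The summed myotube markers (*Myh3*, *Myh8*, *Tnnt3*, *Ttn*, *Ckm*, *Mylpf* and *Acta1*) were between 13857 and 21776 CPM without dox and at 16688, 20600 and 5227 CPM with dox, so the third dox library was low in them, near the myoblast-enriched fraction at 4886 to 8216 CPM. Whether the labels of the 2 libraries of replicate 2 were exchanged was not tested, and the part of these differences in the results for *Susd2* and *Slc17a7* was not tested either. The myotube-enriched dox responses hold for the labels as given.

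**Figure D3:**
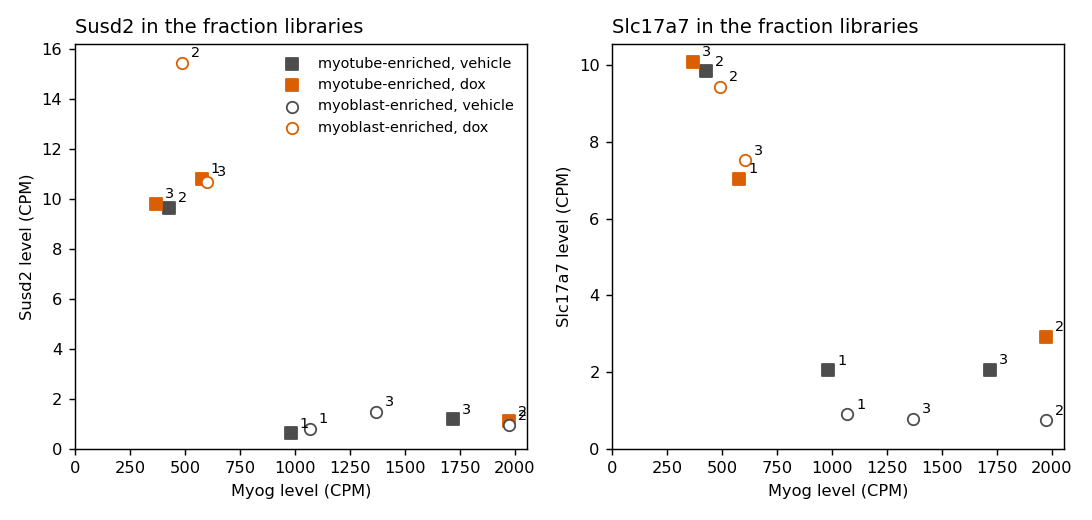
Level of *Susd2* (left) and *Slc17a7* (right) in CPM against the level of *Myog* in CPM in the 11 libraries of the 120 h fractions, with filled or open markers for the fraction and colours for dox and vehicle (no dox). Libraries with *Myog* at 602 CPM or lower have *Susd2* and *Slc17a7* at 7.04 CPM or higher, and they include the vehicle myotube-enriched library labelled replicate 2; the dox library of that number lies among the vehicle libraries.

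Between fractions, no difference passed the edgeR test. The myotube-enriched minus myoblast-enriched log2 difference without dox was 1.87 (SE 0.92, edgeR adjusted p = 0.366) for *Susd2* and 2.56 (SE 0.67, adjusted p = 0.134) for *Slc17a7*. The *Slc17a7* difference did pass with DESeq2 (adjusted p = 0.00296), with no low-count filter (0.0260) and with all groups of the table in 1 fit (0.0298). Without the vehicle myotube-enriched library labelled replicate 2 the *Susd2* difference was −0.22 (adjusted p = 0.874; between 0.143 and 0.874 over single libraries left out) and the *Slc17a7* difference 1.36 (adjusted p = 0.132; between 0.0663 and 0.365). With dox the differences were −0.84 (SE 0.83, adjusted p = 1.00) and −0.33 (SE 0.57, adjusted p = 1.00). The dox response of the myotube-enriched minus that of the myoblast-enriched fraction was −2.69 (SE 1.41) for *Susd2* and −2.88 (SE 0.93) for *Slc17a7*, each with an adjusted p of 1.00. Without both libraries labelled replicate 2 it was −0.11 for *Susd2* and −1.33 for *Slc17a7*, again with an adjusted p of 1.00 for *Slc17a7*.

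The balance between the genes changed from setting to setting, and levels per length show which gene was the higher. Per kilobase of transcript, *Susd2* over *Slc17a7* was 0.19 at 0 h and 0.06 at 24 h with dox, and *Slc17a7* was the higher gene in every library of these groups. At 48 h with dox the ratio of the group means was 1.46, in the myoblast-enriched fraction 1.74 and in iMcam 1.86, and *Susd2* was the higher gene in every library. At 120 h with dox it was 0.77 and in iCdh23 0.75, with *Slc17a7* again the higher in each library. These are ratios of CPM per kilobase and not molar amounts.

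The split of *Susd2* between its transcripts was unsteady. Over all libraries 12.3% of its estimated count was given to the short transcript, which skips exons 2 and 3. Of 22 libraries with at least 30 *Susd2* counts, 7 had none on the short transcript and the highest share was 91.9%. In iCdh23 and iMcam with dox, which have the most counts, the short transcript took 2.16% and 1.65%, and at 120 h with dox 1.90%. At 0 h with dox it took 0%, 53.0% and 56.9% in the libraries, from 78, 57 and 44 counts, and at 24 h 0%, 100% and 0%, from 29, 16 and 35 counts. At 48 h with dox it took 23.3%, between 6.98% and 52.1% in single libraries, and in the myoblast-enriched fraction with dox 31.1% and 74.4% in the 2 libraries. Replicates of 1 group thus differed widely, and no test of the split was made. The estimate divides reads between overlapping forms, and junction counts were not analysed here.

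**Figure D4:**
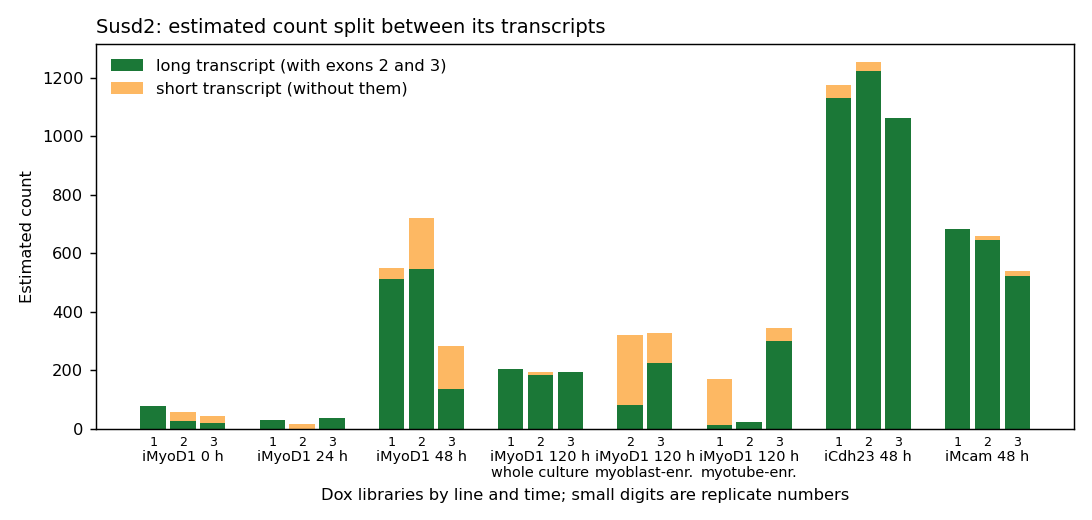
Estimated count of *Susd2* in each dox library, split between the long transcript and the short transcript in stacked bars, by line and time with replicate numbers under the bars. The long transcript holds nearly all of the count in iCdh23, iMcam and the 120 h whole culture, and the share of the short transcript varies between replicates at 0, 24 and 48 h and in the fractions.

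The cell types that normally express *Slc17a7* were looked for by their markers. Of the 10 neuron markers, *Rbfox3* and *Gad1* had at most 3 counts in every library, and *Snap25* and *Elavl3* were under 1 CPM in every group. The summed neuron markers ranged from 9.99 to 127.8 CPM over the libraries, and *Map2* reached 82.8 CPM in a group, *Tubb3* 39.7 CPM and *Syt1* 31.9 CPM. With dox the sum was lower in iCdh23 (97.1 to 39.9 CPM) and iMcam (87.0 to 29.8 CPM), where *Slc17a7* was highest, although *Elavl3* rose in iCdh23, from 0.0440 to 0.543 CPM. It was also lower at 24 h (119.6 to 83.2 CPM) and at 48 h (32.5 to 23.9 CPM). In the 120 h whole culture the sum was higher with dox (11.5 to 20.5 CPM) through *Map2*, which rose from 7.21 to 17.997 CPM, while *Tubb3* was at 3.45 and 1.78 CPM and was not called. The part of these markers in the level of *Slc17a7* was not tested. Endothelial markers summed to at most 1.46 CPM, leukocyte markers to at most 6.17 CPM and Schwann cell or glial markers to at most 6.59 CPM. The leukocyte sum went from 1.83 to 4.63 CPM with dox at 120 h, where *Itgam* rose from 0.782 to 4.14 CPM. Smooth muscle or pericyte markers, which myoblasts share in part through *Acta2*, summed to between 120 and 4448 CPM. In iCdh23 their sum went from 2393 to 153 CPM with dox. *Acta2* and *Pdgfrb* were among the genes that fell there, and *Myh11* rose, from 0.119 to 0.818 CPM. *Myh11* also rose at 120 h, where *Cspg4* and *Pdgfrb* fell.

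Muscle and proliferation markers moved against *Susd2* and *Slc17a7* in several settings. With dox the summed myotube markers went from 6486 to 63.8 CPM in iCdh23, where 7 of 7 fell, from 5785 to 819 CPM in iMcam, where 6 of 7 fell, and from 12528 to 4855 CPM at 48 h in iMyoD1, where 6 of 7 fell. The summed proliferation markers went from 711 to 20.6 CPM in iCdh23 from 610 to 81.3 CPM in iMcam and from 942 to 283 CPM at 48 h in iMyoD1, with 5 of 5 falling in each. Of the 5 myogenic markers, 5 fell in iCdh23, 4 in iMcam, 1 at 48 h and 2 at 120 h. In addition *Myf5* fell at 24 h, from 35.9 to 4.70 CPM, and *Myog* fell in the myoblast-enriched fraction, from 1470 to 545 CPM. Of the 7 myotube markers 1 fell at 120 h. Others went the same way as *Susd2* and *Slc17a7*: *Cdh15*, which encodes M-cadherin, rose at 0 h from 54.3 to 112.4 CPM and at 24 h from 23.9 to 57.9 CPM, and *Ttn*, which encodes titin, rose at 0 h from 0.636 to 1.298 CPM. Of all genes tested, 2.91% rose at 0 h, 8.03% at 24 h and 7.32% at 120 h. The share that fell was 17.0% in iCdh23, 9.85% in iMcam, 8.46% at 48 h and 8.80% at 120 h. At 24 h it was 5.14%, and in the myoblast-enriched fraction 1.82%. In the 120 h whole culture the proliferation markers went the other way, from 208 to 401 CPM in sum, and 1 of 5 was called there, *Mki67*, which rose. At 0 and 24 h, none of the proliferation markers was called, and the myotube markers were at most 9.25 CPM in sum. In bulk RNA, fewer cells of a type and less RNA per cell cannot be told apart. The part of these shifts in the levels of *Susd2* and *Slc17a7* was not tested.

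Depth was between 15066338 and 50950674 estimated counts per library, with a median of 22837926. The induced gene of the iMyoD1 line, *Myod1*, did not rise with dox in any comparison and fell at 120 h from 280 ± 42.3 to 92.0 ± 8.46 CPM (SD, n = 3 each). It also fell in iCdh23, from 251 to 41.5 CPM, and in iMcam, from 223 to 70.4 CPM. Whether reads of the transgene were counted is not given in the sources used here. In iCdh23, *Cdh23* was at 389 ± 54.2 CPM without dox and 486 ± 73.6 with it (log2 fold change 0.32, edgeR adjusted p = 0.102), against 7.73 CPM in iMcam without dox. *Cdh23* was thus high in iCdh23 without dox as well, and it gives no check of the dox labels of that line. In iMcam, *Mcam* rose from 18.1 ± 1.49 to 71.3 ± 3.02 CPM. *Mcam* also rose in iCdh23, from 6.28 to 49.1 CPM, and *Cdh23* in iMcam, from 7.73 to 51.2 CPM.

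The SLC17 family carries organic anions, among them glutamate, sialic acid and nucleotides, and 2 of the 8 other members reached 1 CPM in any group. *Slc17a5*, the lysosomal sialic acid transporter, was between 8.90 and 33.0 CPM and rose in iCdh23, from 14.4 to 33.0 CPM (log2 1.199). *Slc17a6*, which encodes VGLUT2, was at 1.63 CPM in growth medium and fell with dox to 0.0695 CPM (edgeR adjusted p = 5.81e-05), opposite to *Slc17a7*. Genes that fell made up 1.36% of those tested at 0 h.

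Of 23 genes of glutamate synthesis, transport and reception, 12 to 14 were tested in each comparison, and in iCdh23 4 rose and 4 fell of 14. Their median log2 fold change lay between −0.40 and 0.10, against −0.01 to 0.04 for all genes. *Gls2*, a glutaminase, rose in 4 comparisons (24 h, 120 h, iCdh23 and iMcam), from 3.36 to 12.3 CPM in iCdh23, and *Grik5*, a kainate receptor subunit, in 4 (24 h, 48 h, iCdh23 and iMcam), from 34.5 to 72.9 CPM at 48 h. *Slc7a11*, the cystine and glutamate exchanger, fell in 4 comparisons: at 24 h from 109.3 to 38.3 CPM, at 120 h from 68.3 to 3.96 CPM, in iCdh23 from 18.9 to 1.25 CPM and in iMcam from 7.84 to 1.12 CPM. *Slc1a3*, a glutamate uptake transporter, fell at 0 h from 48.3 to 15.8 CPM, at 24 h and in iCdh23 from 259.5 to 47.1 CPM, and *Slc1a4*, a neutral amino acid transporter, fell in 5 of the 8 comparisons. Of all genes, 8.03% rose and 5.14% fell at 24 h, 5.93% and 8.46% at 48 h, 7.32% and 8.80% at 120 h, 1.21% and 1.82% in the myoblast-enriched fraction, 13.0% and 17.0% in iCdh23 and 6.99% and 9.85% in iMcam.

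Among 23 genes of synaptic vesicles and transmitter release, more rose than fell in each of the 7 comparisons with calls. In growth medium and in the myoblast-enriched fraction that was 1 gene each, of 15 and 17 tested, and at 24 h 3 rose and 1 fell of 14. At 48 h 4 rose and 0 fell of 16 tested, at 120 h 5 rose and 1 fell of 15, in iCdh23 6 rose and 3 fell of 18 and in iMcam 6 rose and 2 fell of 18. The share of all genes that rose was 2.91% at 0 h and as just given in the other comparisons, and in iCdh23 the 3 of 18 that fell stand beside 17.0% of all genes. The median log2 fold change of the list was between 0.19 and 0.66. *Sv2a*, a vesicle glycoprotein gene, rose in 6 comparisons, all but growth medium and the myotube-enriched fraction, by 4.12 (SE 0.25) at 120 h and 3.03 (SE 0.18) in iCdh23, where it went from 3.48 to 28.5 CPM. *Rab3a*, a vesicle GTPase gene, rose at 24 h from 7.26 to 25.2 CPM, and *Syp*, which encodes synaptophysin, in iCdh23 from 1.00 to 7.64 CPM. The gene that rose in growth medium was *Syn2*, from 0.426 to 0.991 CPM. Others fell: *Sv2b* in iCdh23 from 2.67 to 0.0417 CPM and in iMcam from 1.37 to 0.297 CPM, and *Pclo* in both lines. *Syn3* fell at 24 h from 11.4 to 3.42 CPM and also in iCdh23, and *Unc13a* fell at 120 h.

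Of 21 genes with domains like those of *Susd2*, or its partner galectin-1, more fell than rose in iCdh23, 7 and 3 of 12 tested, and in iMcam, 4 and 1 of 11. Of all genes, 17.0% fell and 13.0% rose in iCdh23, and 9.85% fell and 6.99% rose in iMcam. At 48 h 4 fell and 2 rose of 11, and at 24 h, the other way, 2 rose and 1 fell of 8, where 5.93% of all genes rose and 8.46% fell at 48 h and 8.03% rose and 5.14% fell at 24 h. At 120 h 1 rose and 3 fell of 9 (7.32% and 8.80% of all genes), in the myoblast-enriched fraction 0 rose and 3 fell of 13 (1.21% and 1.82%) and at 0 h 0 rose and 1 fell of 9 (2.91% and 1.36%). The median log2 fold change of the list was between −1.74, in iCdh23, and 0.16, at 24 h. *Susd4*, another sushi-domain gene and an inhibitor of complement, rose in 4 comparisons: from 0.278 to 2.03 CPM at 48 h, from 0.0317 to 1.25 CPM at 120 h, from 0.0925 to 3.50 CPM in iCdh23 and from 0.281 to 2.42 CPM in iMcam. *Prg4*, which encodes lubricin with somatomedin B domains, fell in 5 comparisons, at 120 h from 50.5 to 1.91 CPM. *Muc4*, which shares the AMOP domain, fell at 48 h from 2.01 to 0.967 CPM, in iCdh23 from 1.07 to 0.0377 CPM and in iMcam from 1.04 to 0.0931 CPM. *Lgals1*, which encodes galectin-1, was between 529 and 3934 CPM in all groups and fell in iCdh23, from 1861 to 529 CPM, and at 120 h.

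**Figure D5:**
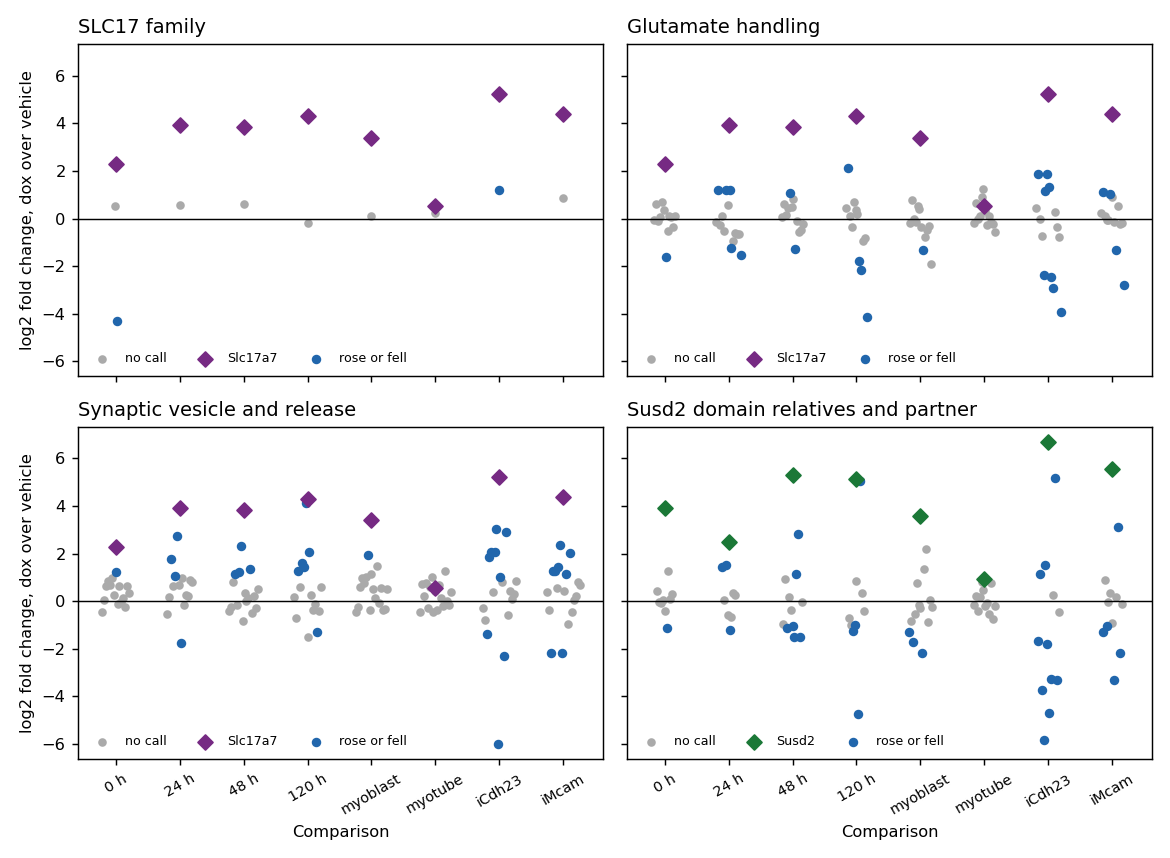
Log2 fold change with dox over vehicle (no dox) of each tested gene of 4 lists in the 8 comparisons, with called genes in blue, the rest in grey and *Susd2* or *Slc17a7* as a diamond for reference. Synaptic vesicle genes that were called lie mostly above 0, and the relatives of *Susd2* are called in both directions. The diamond lies at or near the top of each column, except for the myotube-enriched fraction in the glutamate and synaptic vesicle lists. *Susd2* was chosen by its value at 48 h and *Slc17a7* by its values at 0 and 24 h. The place of the diamond in those columns comes from the choice and is no result.

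The neighbours on the chromosome were compared as well. *Ggt5*, a gamma-glutamyl transferase gene on the plus strand 19506 bases from *Susd2*, rose at 48 h by 2.81 (SE 0.37), at 120 h by 3.01 (SE 0.56), in iCdh23 by 1.98 (SE 0.48) and in iMcam by 1.40 (SE 0.42), from under 1 CPM to between 0.851 and 1.497 CPM. *Cabin1*, which encodes a calcineurin-binding protein and has its 3′ end 2104 bases away on the other side, was between 57.6 and 103.0 CPM and was not called in any of the 8 comparisons. *Lrrc75b*, farther off, fell at 48 h by 1.75 on the log2 scale and in iCdh23 and iMcam. Around *Slc17a7*, *Pih1d1* and *Aldh16a1* were not called, and *Gfy*, on the opposite strand 207 bases beyond its end, had at most 0.24 CPM in any group. *Ccdc155* fell at 48 h.

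The genes whose levels ran most like each member's over the 16 groups were found by Pearson correlation of log2(CPM + 1) among 12084 genes with at least 5 CPM in a group. For *Susd2* they were *Epas1*, which encodes the hypoxia-inducible factor HIF-2α (0.962), *Kcp* (0.953), *Agtrap* (0.941), *Agrn*, the gene of the synapse organizer agrin (0.940), and *Egfl7* (0.937). For *Slc17a7* they were *Btrc* (0.975), *Aldh4a1*, a mitochondrial enzyme gene of proline and glutamate metabolism (0.973), *Rab26* (0.968), *Syngr1*, a synaptic vesicle gene (0.967), and *Efna3* (0.959). *Susd2* and *Slc17a7* had a correlation of 0.815 with each other, 271st and 285th in the order of each. Apart from *Kcp*, which was highest in iMcam with dox, these genes were highest in iCdh23 with dox, the points share library tables, and no p-value is given.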

How the data were processed

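PolyA-selected RNA of 47 C2C12 libraries in 16 groups was sequenced, and groups were taken from the sample titles. Reads went through the nf-core RNA-seq pipeline, from which the authors deposited 3 tables, of 12, 23 and 12 libraries, that hold Salmon's estimated counts for 109617 transcripts, and per the labels the build was mm10. No scaling to depth or length was applied to them, and 33.3% of the values were not whole.

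Here estimated counts were summed per gene symbol (45143 of 45706 gene identifiers had one), rounded and, within each pair of groups, filtered with filterByExpr, TMM-normalized and tested with edgeR 4.0.16 in R 4.3.3 (quasi-likelihood test, Benjamini-Hochberg adjustment over all genes). SE was derived from the F statistic. Interactions were fitted over 4 groups. Levels are CPM with TMM factors over all libraries, and levels per length divide each transcript's CPM by its kilobases. With 3 libraries against 3 an exact permutation test of 1 value cannot pass, so only fits across genes were used. The labels call the replicates biological, and how separate they were is not given in the sources used here. Transcripts, positions and neighbours are from GENCODE vM21 (GRCm38).

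The members and the gene lists were chosen with earlier results of these data known. Named genes are the members, the SLC17 genes that reach 1 CPM and up to 2 called genes per list, direction and comparison. The 5 most alike genes and some of the 3 neighbours on each side are also named. *Flt3l*, a neighbour of *Slc17a7*, was not among the counted symbols. *Lgals1* was named after its values were seen. The fits of the dox response in iCdh23, in the myoblast-enriched fraction and of iCdh23 minus iMcam were tested on simulated counts in which 200 genes changed. The other comparisons were not simulated. The alternatives tried were RLE normalization, DESeq2 1.42.0, leaving out the low-count filter, all groups of a table in 1 fit, the replicate number as a block, plain CPM, Spearman correlation and each library left out. Same-numbered libraries deviated together in every pair (residual correlation over 0.1) for iCdh23 (0.101 to 0.262), iMcam (0.309 to 0.499), the fractions without dox (0.136 to 0.470) and the lines without dox (0.209 to 0.494), and not in every pair of the other comparisons with 3 pairs. With 2 pairs, the myoblast-enriched dox comparison deviated together in both (0.387 and 0.515). The comparison of the fractions with dox, also with 2 pairs, did not (−0.228 and 0.480). No 2 libraries of a group were copies: the lowest chi-square per gene was 3.04.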

Additional observations from a re-analysis of the deposited data

How the results depend on the processing

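Of 463 values computed under an alternative for 38 results, 437 kept their direction and their side of the threshold or, where no test was made, moved by no more than the SE of the fold change. Of the other 26, 11 lost and 4 gained a call, 7 moved further and 4 changed sign. The replicate block changed no call for *Susd2* or *Slc17a7*, and with it the myotube-enriched dox response of *Susd2* was 1.95 (adjusted p = 1.00) and the iCdh23 against iMcam difference with dox 0.46 (adjusted p = 0.00247). With all groups of a table in 1 fit, the myoblast-enriched responses were 3.59 for *Susd2* (adjusted p = 0.121) and 3.39 for *Slc17a7* (adjusted p = 0.0819) and the *Susd2* difference between these lines with dox was 0.47 (adjusted p = 0.782), so these calls were lost, and the cause was not tested. The *Slc17a7* difference between fractions without dox passed the threshold with DESeq2 (2.57, adjusted p = 0.00296), with no low-count filter (2.53, adjusted p = 0.0260) and with all groups in 1 fit (2.56, adjusted p = 0.0298), against 0.0663 to 0.365 with single libraries left out, and the cause was not tested. Leaving out single libraries gave log2 values from 4.97 to 5.54 for *Susd2* at 48 h, 3.30 to 3.89 for *Susd2* and 3.22 to 3.56 for *Slc17a7* in the myoblast-enriched fraction, −0.22 to 2.36 for *Susd2* between fractions without dox, 0.31 to 0.53 for *Susd2* between these lines with dox, and −2.53 to −1.10 for the *Susd2* response at 24 h minus 0 h, which passed (adjusted p = 0.0219, up to 0.377 with others) without the 0 h vehicle library of replicate 3. For *Slc17a7* they were 2.07 to 2.48 at 0 h, 3.72 to 4.23 at 24 h, 1.39 to 1.90 for 24 h minus 0 h, −0.0909 to 0.0858 from 48 to 120 h with dox (below 0, at −0.0189 and −0.0909, without replicate 3 of 48 h or of 120 h) and −0.70 to 0.0231 between fractions with dox, above 0 without the dox myotube-enriched library labelled replicate 2. Leaving out both myotube-enriched libraries of replicate 2 was chosen after seeing the data. With plain CPM, 1 of 16 *Susd2* levels (iCdh23 with dox, 52.3) and 3 *Slc17a7* levels (0 h with dox, 16.5; 24 h with dox, 15.03; iCdh23 with dox, 64.9) moved by more than 1 SD. By Spearman correlation, 2 of the 5 most alike genes were kept for each member. *Susd2* was under the low-count filter in both time comparisons without dox, which gave no value, and in the comparison of the lines without dox once iCdh23 replicate 1 was left out. The vehicle libraries of *Susd2* hold few counts, which limits the precision of its folds.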
